A study of Saccharomyces cerevisiae with 6 samples.

Results

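The 42 genes described here encode the large ribosomal subunit (60S) assembly factors of budding yeast together with the core proteins of the small nucleolar ribonucleoprotein particles (snoRNPs). They were chosen by name, and each of the 42 had 1 probe set of its own among the 5449 Saccharomyces cerevisiae genes measured. Their RNA was measured on 6 Affymetrix yeast arrays, in strains that had been evolved on galactose and were then grown on glucose. The question was how strains adapted to galactose express these genes when glucose is the carbon source. The evolved strains were named 62A (1 array), 62B (2 arrays) and 62C (1 array), and the reference was the wild type CEN.PK113-7D (2 arrays), the background of all 3. All cultures grew on minimal glucose medium in fermenters at pH 5.0 and were sampled in mid exponential phase. The labels name no mutation of the evolved strains. They leave it unsaid whether both arrays of 62B, or of the reference, had a culture each, so the p-values measure only the spread between these arrays, which may be technical. Strains 62A and 62C rest on single arrays.

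Ribosome assembly starts in the nucleolus, where RNA polymerase I makes a long precursor of the 18S, 5.8S and 25S rRNAs. Box C/D snoRNPs direct ribose methylation of this precursor and box H/ACA snoRNPs direct its pseudouridylation. RNA helicases, methyltransferases and scaffold proteins then fold and trim the pre-60S particle, and GTPases and export factors carry it to the cytoplasm. In yeast the genes of this route form the ribosome biogenesis regulon, whose transcription follows nutrient supply and growth through the TOR, Sch9 and protein kinase A pathways.

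Values are given on the log2 scale of the deposited table, and levels of different genes are not compared. All 42 genes lay above background (5.07, the 95th percentile of probe sets for another yeast species) on every array. Repeat arrays differed little on these genes, with an SD of the difference of 0.057 for the 62B pair and 0.084 for the reference pair. The reference arrays were not level, since 38 of the 42 genes were lower on reference array 1 than on array 2 (90.5%, beside 68.7% of all genes, with median differences of -0.087 and -0.041). The mean 3' minus 5' log2 difference of 8 control genes, a measure of RNA integrity, was 1.89 in 62A, 2.01 and 2.05 in 62B, 1.73 in 62C and 1.90 and 1.84 in the reference. The low 62C mean rested largely on TDH1 (1.17 in 62C, against 2.18 and 2.30 in the reference): without TDH1 the mean was 1.91 in 62A, 1.93 and 1.98 in 62B, 1.82 in 62C and 1.86 and 1.77 in the reference, so that 62C lay within the reference range and 62B stayed highest. Its part in the differences between strains was not tested.

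Most of these genes fell in 62C, and fewer than 1 in 2 fell in 62A or in 62B. In 62C 37 of the 42 genes fell and 0 rose (limma adjusted p under the threshold of 0.05 over all genes), with a median change of -0.34, which is a level 20.8% below the reference. In 62A 15 fell and 0 rose (median -0.18), and in 62B 17 fell and 1 rose (median -0.12). Over all 5449 genes 23.3% fell in 62C, 14.9% in 62A and 21.3% in 62B, and the medians were -0.044, -0.036 and -0.010. The rises covered 14.7%, 10% and 20.1% of all genes in 62C, 62A and 62B. Of the 42 genes 88.1% fell in 62C, 35.7% in 62A and 40.5% in 62B. The 3 comparisons share the reference arrays. Without the first or the second 62B array only the reference pair was left to measure the spread. Most of the 42 genes then still fell in 62C, and fewer fell in 62A and 62B than with all arrays. Falls and rises together, the share that passed was then close to that of all genes in 62A and below it in 62B. Without reference array 1 27 passed in 62A. Without reference array 2 13 fell and 1 rose in 62A, and 14 fell and 6 rose in 62B.

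With each evolved strain taken as 1 sample, 3 strains against 2 reference arrays, 3 of the 42 genes fell and 0 rose, a share of 7.1% beside 4.75% of all genes (2.79% fell and 1.96% rose). They were RLP24, NOP1 and TIF6. The median over the 42 genes was -0.22 and 41 of them had a change below 0, beside a median of -0.028 over all genes. On 27 of the 42 genes all 4 evolved arrays lay below both reference arrays, beside 27.4% of all genes, and on 0 genes did all 4 lie above, beside 18.2%. With strain as a random block (estimated correlation 0.683) 0 of the 42 passed, and the adjusted p was 0.0826 for RLP24, 0.137 for NOP1 and 0.124 for TIF6. With both 62B arrays separate and the replicate number as a block RLP24 alone passed, and NOP1 had an adjusted p of 0.0575. Without 62A or without 62C 0 of the 42 passed in limma, beside 6 and 99 of all genes. Without either reference array, which left a single reference array, the calls of the 42 and of all genes did not hold either. Why so few passed in these fits was not tested. With 1 array left out the change ran from -0.40 to -0.32 for NOP1 and from -0.42 to -0.38 for RLP24. The median over the 42 genes moved to -0.15 without 62C and to -0.28 without reference array 1. Several smaller class changes turned sign, as given below. In the full comparison 19 of the 42 had an unadjusted p under 0.05, beside 1555 of all 5449 genes.

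**Figure D1:**
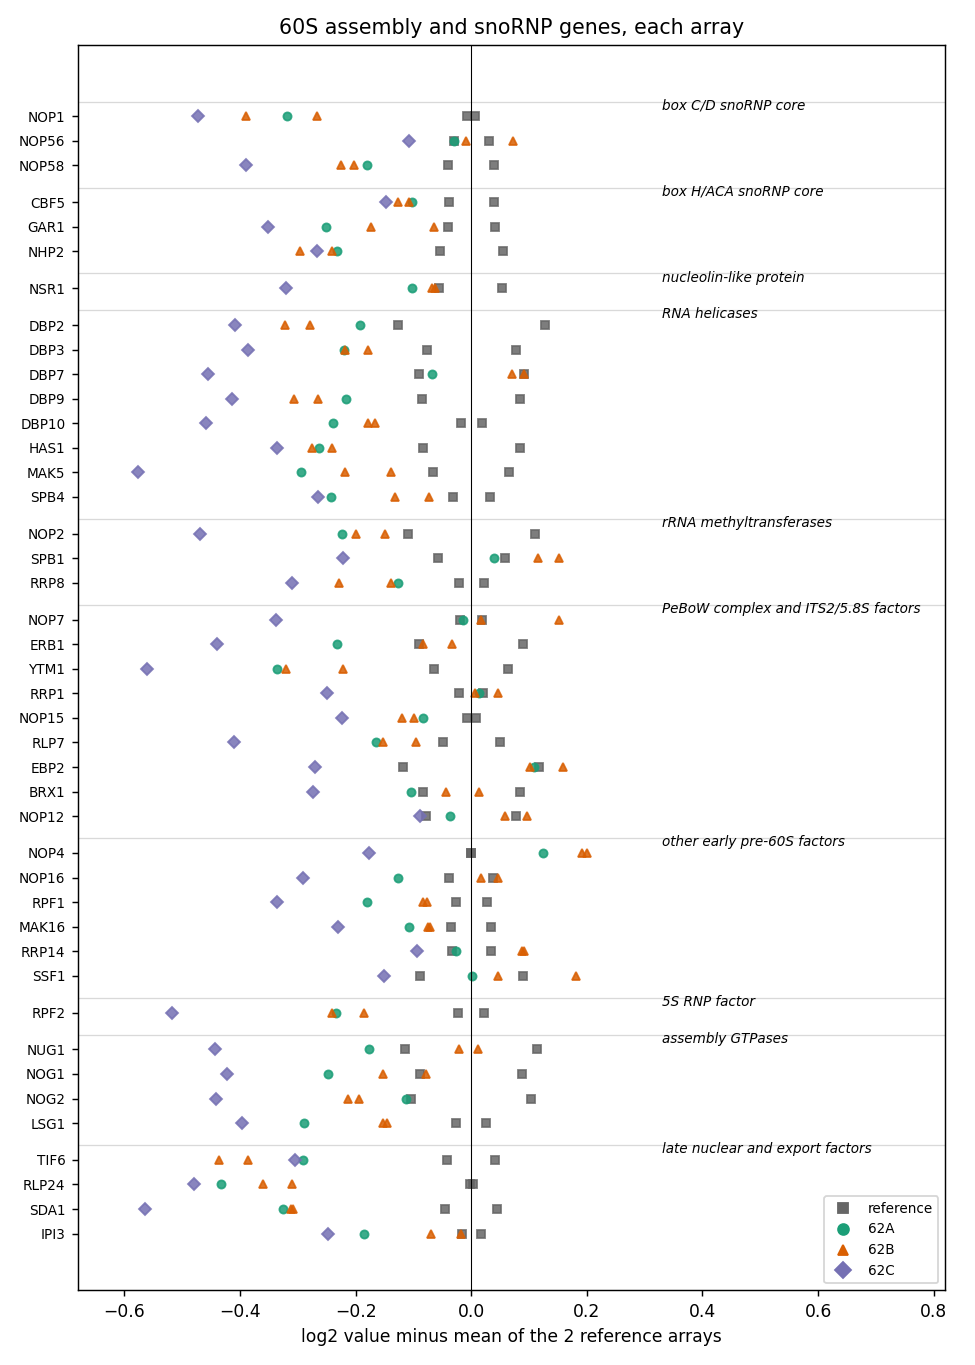
Log2 value of each of the 42 genes on each array, minus the mean of both reference arrays (horizontal axis), with genes grouped by role. Grey squares are the reference arrays, green circles 62A, orange triangles 62B and purple diamonds 62C. The 62C array is the lowest of the strains on 40 of the 42 genes, and on 27 genes every evolved array lies left of both reference arrays.

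Among the box C/D snoRNP proteins, NOP1 fell in all 3 strains, NOP58 in 62B and 62C, and NOP56 passed in 0 strains. NOP1 (YDL014W), the fibrillarin methyltransferase of the particle, had log2 values of 9.87 in 62A, 9.92 and 9.80 in 62B, 9.71 in 62C and 10.18 and 10.19 in the reference. All 4 evolved arrays lay below both reference arrays. NOP1 fell in each strain, with log2 changes (± SE of the fit) of -0.32 ± 0.067 (adjusted p = 0.00858) in 62A, -0.33 ± 0.054 (adjusted p = 0.00135) in 62B and -0.47 ± 0.067 (adjusted p = 0.000578) in 62C. NOP58 (YOR310C), a scaffold protein of the particle, stood at 10.56 in 62A, 10.53 and 10.51 in 62B, 10.35 in 62C and 10.70 and 10.78 in the reference. Here too the groups did not overlap. NOP58 fell in 62B (-0.21 ± 0.050, adjusted p = 0.00775) and 62C (-0.39 ± 0.061, adjusted p = 0.00109), while its change in 62A was -0.18 ± 0.061 (adjusted p = 0.0597). NOP56 (YLR197W), the partner of NOP58 in the same particle, stood at 9.59 in 62A, 9.69 and 9.61 in 62B, 9.51 in 62C and 9.64 and 9.58 in the reference. Its evolved and reference arrays overlapped, and its changes were -0.029 ± 0.063 in 62A, 0.031 ± 0.052 in 62B and -0.11 ± 0.063 in 62C, with adjusted p of 0.775, 0.663 and 0.21. Whether NOP56 differs in its change from NOP1 or NOP58 was not tested.

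CBF5, GAR1 and NHP2, core proteins of box H/ACA snoRNPs, lay lower on every evolved array than on either reference array. CBF5 (YLR175W), the pseudouridine synthase, stood at 9.42 in 62A, 9.39 and 9.41 in 62B, 9.37 in 62C and 9.56 and 9.48 in the reference. That gap was small, and CBF5 passed in 0 strains, with its lowest adjusted p at 0.0854 in 62C (change -0.15 ± 0.061). GAR1 (YHR089C), which binds the synthase, stood at 9.70 in 62A, 9.89 and 9.78 in 62B, 9.60 in 62C and 9.91 and 9.99 in the reference. It fell in 62A (-0.25 ± 0.069, adjusted p = 0.0263) and 62C (-0.35 ± 0.069, adjusted p = 0.00354), and its change in 62B was -0.12 ± 0.056 (adjusted p = 0.119). NHP2 (YDL208W), an RNA-binding protein of the particle, stood at 10.17 in 62A, 10.11 and 10.16 in 62B, 10.14 in 62C and 10.35 and 10.46 in the reference. The 4 evolved arrays of NHP2 lay close together, and it fell in 62A (-0.23), 62B (-0.27) and 62C (-0.27), with adjusted p of 0.0315, 0.00377 and 0.0118. NSR1 (YGR159C), a nucleolin-like protein needed for pre-rRNA processing, stood at 8.89 in 62A, 8.92 and 8.93 in 62B, 8.67 in 62C and 8.94 and 9.04 in the reference. The 62C array was lowest, and NSR1 fell in 62C (-0.32 ± 0.064, adjusted p = 0.00418), with changes of -0.10 in 62A and -0.065 in 62B that did not pass.

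All 8 RNA helicase genes fell in 62C, 4 fell in 62A and 6 in 62B, with medians of -0.41, -0.23 and -0.19. These DEAD-box proteins use ATP to remodel pre-rRNA and its contacts with proteins and snoRNAs. MAK5 (YBR142W) stood at 8.41 in 62A, 8.57 and 8.48 in 62B, 8.13 in 62C and 8.64 and 8.77 in the reference. It fell in all 3 strains and was lowest in 62C (-0.58 ± 0.072, adjusted p = 0.000282, 0.671 of the reference level), with -0.30 ± 0.072 (adjusted p = 0.0168) in 62A and -0.18 ± 0.059 (adjusted p = 0.0351) in 62B. DBP9 (YLR276C) stood at 7.89 in 62A, 7.85 and 7.80 in 62B, 7.70 in 62C and 8.02 and 8.20 in the reference. It fell in 62B (-0.29 ± 0.062, adjusted p = 0.0053) and 62C (-0.41 ± 0.076, adjusted p = 0.00245), and its change in 62A was -0.22 ± 0.076 (adjusted p = 0.0645). DBP2 (YNL112W), which also acts on messenger RNA, stood at 7.88 in 62A, 7.75 and 7.79 in 62B, 7.66 in 62C and 7.94 and 8.20 in the reference. The reference arrays of DBP2 differed by 0.25, the widest gap of the 42 genes, and it fell in 62B (-0.30 ± 0.076, adjusted p = 0.0113) and 62C (-0.41 ± 0.093, adjusted p = 0.00763). DBP7 (YKR024C) stood at 7.86 in 62A, 8.02 and 8.00 in 62B, 7.47 in 62C and 7.84 and 8.02 in the reference. Only the 62C array of DBP7 lay outside the range of the reference arrays on the low side, and the gene fell in 62C alone among the tests against the reference (-0.46 ± 0.077, adjusted p = 0.00166). HAS1, DBP10, DBP3 and SPB4, the other helicases, fell in 62C by log2 changes from -0.46 to -0.27. HAS1 and DBP10 fell in all 3 strains, DBP3 in 62B and 62C, and SPB4 in 62A and 62C.

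The 3 methyltransferases of 25S rRNA fell in 62C, 0 of them fell in 62A, and RRP8 fell in 62B. NOP2 (YNL061W), a cytosine methyltransferase, stood at 8.30 in 62A, 8.37 and 8.32 in 62B, 8.05 in 62C and 8.41 and 8.63 in the reference. It lay below both reference arrays on every evolved array and fell in 62C (-0.47 ± 0.086, adjusted p = 0.0024), with changes of -0.22 ± 0.086 (adjusted p = 0.0876) in 62A and -0.17 ± 0.070 (adjusted p = 0.0743) in 62B. SPB1 (YCL054W), a ribose methyltransferase, stood at 7.94 in 62A, 8.05 and 8.01 in 62B, 7.67 in 62C and 7.84 and 7.95 in the reference. Both 62B arrays lay above the reference arrays and the 62C array lay below them, and the fall in 62C passed (-0.22 ± 0.066, adjusted p = 0.0261) while the change in 62B did not (0.13 ± 0.054, adjusted p = 0.0772). Without either 62B array the adjusted p of SPB1 in 62C was 0.0662. RRP8 (YDR083W), which methylates an adenine base, stood at 7.52 in 62A, 7.51 and 7.42 in 62B, 7.34 in 62C and 7.62 and 7.67 in the reference. Its groups did not overlap, and it fell in 62B (-0.18 ± 0.052, adjusted p = 0.0189) and 62C (-0.31 ± 0.063, adjusted p = 0.00456).

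**Figure D2:**
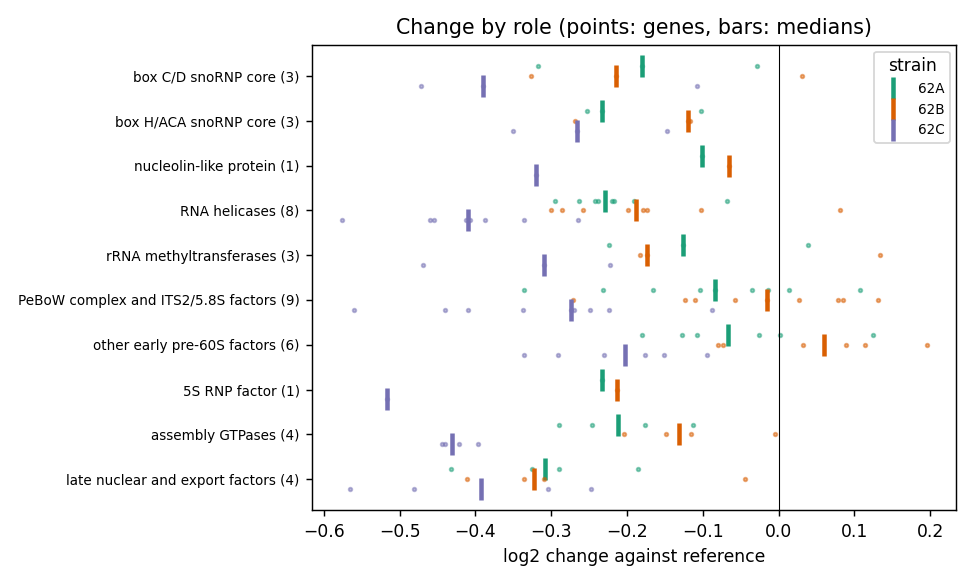
Log2 change of each gene against the reference (horizontal axis) by role, with the number of genes in brackets; points are genes and vertical bars are medians. In 62C the medians run from -0.52 for the 5S RNP factor to -0.20 for the other early pre-60S factors, and the 62B median of that last group lies above 0 (0.060).

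Nop7, Erb1 and Ytm1 form the complex that is needed to trim the end of the 5.8S precursor, and further factors bind beside it at the spacer between 5.8S and 25S rRNA. Of 9 such genes 8 fell in 62C (median -0.27), 1 fell in 62A and 1 in 62B (medians -0.084 and -0.015). YTM1 (YOR272W) was the member that fell in all 3 strains, and stood at 7.71 in 62A, 7.72 and 7.82 in 62B, 7.48 in 62C and 7.98 and 8.11 in the reference. Its groups did not overlap, and its changes were -0.34 ± 0.073 (adjusted p = 0.0101) in 62A, -0.27 ± 0.059 (adjusted p = 0.00573) in 62B and -0.56 ± 0.073 (adjusted p = 0.000365) in 62C. ERB1 (YMR049C) stood at 8.39 in 62A, 8.54 and 8.59 in 62B, 8.19 in 62C and 8.54 and 8.72 in the reference. Both its 62B arrays lay inside the reference range and the 62C array was the lowest, and it fell in 62C (-0.44 ± 0.078, adjusted p = 0.00203) with a change of -0.23 ± 0.078 (adjusted p = 0.0577) in 62A. NOP7 (YGR103W) stood at 8.73 in 62A, 8.89 and 8.76 in 62B, 8.40 in 62C and 8.72 and 8.76 in the reference. It fell in 62C (-0.34 ± 0.069, adjusted p = 0.00461), where its level was 0.792 of the reference, while its 62A and 62B changes of -0.014 and 0.085 did not pass. RLP7 (YNL002C), a relative of ribosomal protein L7 that binds the spacer, stood at 8.95 in 62A, 9.02 and 8.96 in 62B, 8.70 in 62C and 9.06 and 9.16 in the reference. All its evolved arrays lay below the reference arrays and the fall in 62C passed (-0.41 ± 0.065, adjusted p = 0.00116). The remaining genes of this group were RRP1, NOP15, EBP2, BRX1 and NOP12. The first 4 of these fell in 62C (EBP2 not without either 62B array or reference array 2, adjusted p of 0.0752 and 0.0680), by log2 changes between -0.27 and -0.22, and NOP12, which acts on the folding of 5.8S rRNA, had a change of -0.088 ± 0.073 (adjusted p = 0.372) there.

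The other early pre-60S factors had the smallest median change in 62C of all the roles. Of 6 genes 4 fell in 62C (median -0.20), 0 fell in 62A (median -0.067), and in 62B 1 rose and 0 fell (median 0.060). NOP4 (YPL043W), an RNA-binding protein that enters the earliest pre-60S particles, was the 1 gene of the 42 that rose in any strain. It stood at 8.93 in 62A, 9.00 and 9.01 in 62B, 8.63 in 62C and 8.81 and 8.81 in the reference. Arrays of 62A and 62B exceeded both reference arrays, whereas 62C was below them. NOP4 rose in 62B (0.20 ± 0.046, adjusted p = 0.00812), fell in 62C (-0.18 ± 0.056, adjusted p = 0.0349), and had a change of 0.12 ± 0.056 (adjusted p = 0.138) in 62A. Its calls rested on both 62B arrays: without either of them the adjusted p was 0.0763 or 0.0869 in 62B and 0.0967 in 62C. RPF1 (YHR088W), a Brix-domain protein, stood at 7.55 in 62A, 7.66 and 7.65 in 62B, 7.40 in 62C and 7.71 and 7.76 in the reference. It fell in 62C (-0.34 ± 0.059, adjusted p = 0.00188), with a change in 62A of -0.18 ± 0.059 (adjusted p = 0.0512). MAK16 (YAL025C), which binds with RPF1, stood at 6.29 in 62A, 6.33 and 6.33 in 62B, 6.17 in 62C and 6.37 and 6.44 in the reference. Its groups did not overlap, yet the gap was small and the fall in 62C alone passed (-0.23 ± 0.060, adjusted p = 0.0142). NOP16 (YER002W) stood at 7.46 in 62A, 7.64 and 7.61 in 62B, 7.30 in 62C and 7.55 and 7.63 in the reference. It fell in 62C (-0.29 ± 0.061, adjusted p = 0.00511), and its 62B arrays lay close to the reference. RRP14 and the Brix-domain gene SSF1 had changes of -0.094 ± 0.060 (adjusted p = 0.243) and -0.15 ± 0.086 (adjusted p = 0.196) in 62C and of 0.089 and 0.11 in 62B, and passed in 0 strains. RPF2 (YKR081C), which helps to place the 5S RNP in the particle, stood at 8.05 in 62A, 8.10 and 8.05 in 62B, 7.77 in 62C and 8.27 and 8.31 in the reference. It fell in 62A (-0.23 ± 0.060, adjusted p = 0.0205), 62B (-0.21 ± 0.049, adjusted p = 0.0072) and 62C (-0.52 ± 0.060, adjusted p = 0.000188), and its groups did not overlap.

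Each of the 4 assembly GTPases fell in 62C, with changes between -0.44 and -0.40, and 2 of them fell in 62A and 2 in 62B. LSG1 (YGL099W), which acts in the cytoplasm on the export adaptor, stood at 7.44 in 62A, 7.59 and 7.58 in 62B, 7.34 in 62C and 7.71 and 7.76 in the reference. It fell in 62A (-0.29 ± 0.058, adjusted p = 0.00718), 62B (-0.15 ± 0.048, adjusted p = 0.0319) and 62C (-0.40 ± 0.058, adjusted p = 0.000732). NOG1 (YPL093W), a GTPase of the pre-60S particle, stood at 8.67 in 62A, 8.84 and 8.76 in 62B, 8.49 in 62C and 8.83 and 9.00 in the reference. One 62B array overlapped the reference, and NOG1 fell in 62A (-0.25 ± 0.079, adjusted p = 0.048) and 62C (-0.42 ± 0.079, adjusted p = 0.00268). NOG2 (YNR053C), a nuclear GTPase, stood at 8.86 in 62A, 8.78 and 8.76 in 62B, 8.53 in 62C and 8.87 and 9.08 in the reference. Its 62A array lay just below the lower reference array, and it fell in 62B (-0.20 ± 0.067, adjusted p = 0.0355) and 62C (-0.44 ± 0.082, adjusted p = 0.00273). NUG1 fell in 62C (-0.44 ± 0.086, adjusted p = 0.00346) and had a change of -0.0045 in 62B.

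Of the late nuclear and export factors all 4 genes fell in 62A and in 62C, and 3 in 62B. RLP24 (YLR009W), a placeholder for ribosomal protein L24 on the pre-60S particle, stood at 7.82 in 62A, 7.94 and 7.89 in 62B, 7.77 in 62C and 8.25 and 8.25 in the reference. Both reference arrays were level and every evolved array lay well below them. RLP24 fell in 62A (-0.43 ± 0.058, adjusted p = 0.000963), 62B (-0.34 ± 0.048, adjusted p = 0.000547) and 62C (-0.48 ± 0.058, adjusted p = 0.000244), and by 0.42 ± 0.060 in the evolved strains as a class (adjusted p = 0.039), to 0.749 of the reference level. TIF6 (YPR016C), which keeps the subunits from joining too early, stood at 9.09 in 62A, 9.00 and 8.95 in 62B, 9.08 in 62C and 9.34 and 9.42 in the reference. It was lowest in 62B (-0.41 ± 0.051, adjusted p = 0.000271), unlike most of the 42 genes, and fell in 62A (-0.29 ± 0.063, adjusted p = 0.0101) and 62C (-0.30 ± 0.063, adjusted p = 0.00479). In the class TIF6 fell by 0.33 (adjusted p = 0.0484) and NOP1 by 0.37 (adjusted p = 0.0439). SDA1 (YGR245C), needed for late nuclear maturation and export, stood at 8.16 in 62A, 8.17 and 8.17 in 62B, 7.92 in 62C and 8.44 and 8.53 in the reference. It fell in each strain (-0.33, -0.31 and -0.56 in 62A, 62B and 62C), and its class change of -0.40 ± 0.094 (adjusted p = 0.0693) did not pass. IPI3, of the Rix1 complex, fell in 62A (-0.19) and 62C (-0.25), and its change in 62B was -0.044 ± 0.048 (adjusted p = 0.502). The 62A call of IPI3 was near the threshold (adjusted p = 0.0481).

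The evolved strains were then compared with one another, without the reference level. In limma 25 of the 42 genes passed as lower in 62C than in 62B and 0 as higher (median -0.25). Over all genes 19.5% passed as lower and 14.1% as higher. The difference was largest for DBP7 (-0.54 ± 0.077, adjusted p = 0.000844), NUG1 (-0.44 ± 0.086, adjusted p = 0.00424) and NOP7 (-0.42 ± 0.069, adjusted p = 0.00175). EBP2 (-0.40), MAK5 (-0.40), ERB1 (-0.38) and NOP4 (-0.37) came next. TIF6 (0.11 ± 0.063, adjusted p = 0.225) and NHP2 (0.0027 ± 0.066, adjusted p = 0.982) were the 2 genes whose 62C level was not below that of 62B. By role, 7 of 9 Nop7 group genes, 5 of 6 other early factors, 3 of 4 GTPases and 3 of 8 helicases passed. So did 2 of 3 methyltransferases, 2 of 4 late factors, RPF2, NSR1 and, of the 6 snoRNP core genes, GAR1 alone. Without the first or the second 62B array fewer of the 42 genes passed, and their share stayed above that of all genes.

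Between 62C and 62A all 42 genes had differences below 0 (median -0.18), beside a median of -0.0032 over all genes, and 1 gene passed, NOP4 (-0.30 ± 0.065, adjusted p = 0.0497). Over all genes 2.42% passed (0.514% lower and 1.91% higher in 62C), with a single array on each side. The SD of the difference over all genes was 0.137, beside 0.294 for 62C minus 62B. Why few genes of any kind passed was not tested. Without either 62B array fewer of the 42 and of all genes passed, and without either reference array more of both did. In the full comparison 21 of the 42 had an unadjusted p under 0.05, beside 784 of all 5449 genes. Between 62B and 62A 0 of the 42 genes passed in limma (median 0.063), beside 6.77% of all genes lower and 9.38% higher in 62B. An unadjusted p under 0.05 was found for 4 of the 42, beside 1608 of all 5449 genes. In a joint test over the 3 strains 19 of the 42 genes differed, beside 28.8% of all genes. Without a 62B array the share of the 42 that differed fell below that of all genes. Without a reference array more of the 42 and of all genes differed. With all arrays the adjusted p of the joint test was smallest for DBP7 (0.00247), NOP4 (0.00314) and NOP7 (0.00491). Among the 42 genes 11 fell in each strain, beside 8.35% of all genes, and of these DBP10, MAK5, YTM1, RPF2, LSG1 and SDA1 also differed among the strains. The level was lowest in 62C for 40 of the 42 genes, beside 41% of all genes, and highest in 62B for 32, beside 47.6%. None was highest in 62C, beside 33.4%. Among the strains the mean 3' minus 5' control difference was likewise lowest in 62C and highest in 62B, with TDH1 and without it.

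**Figure D3:**
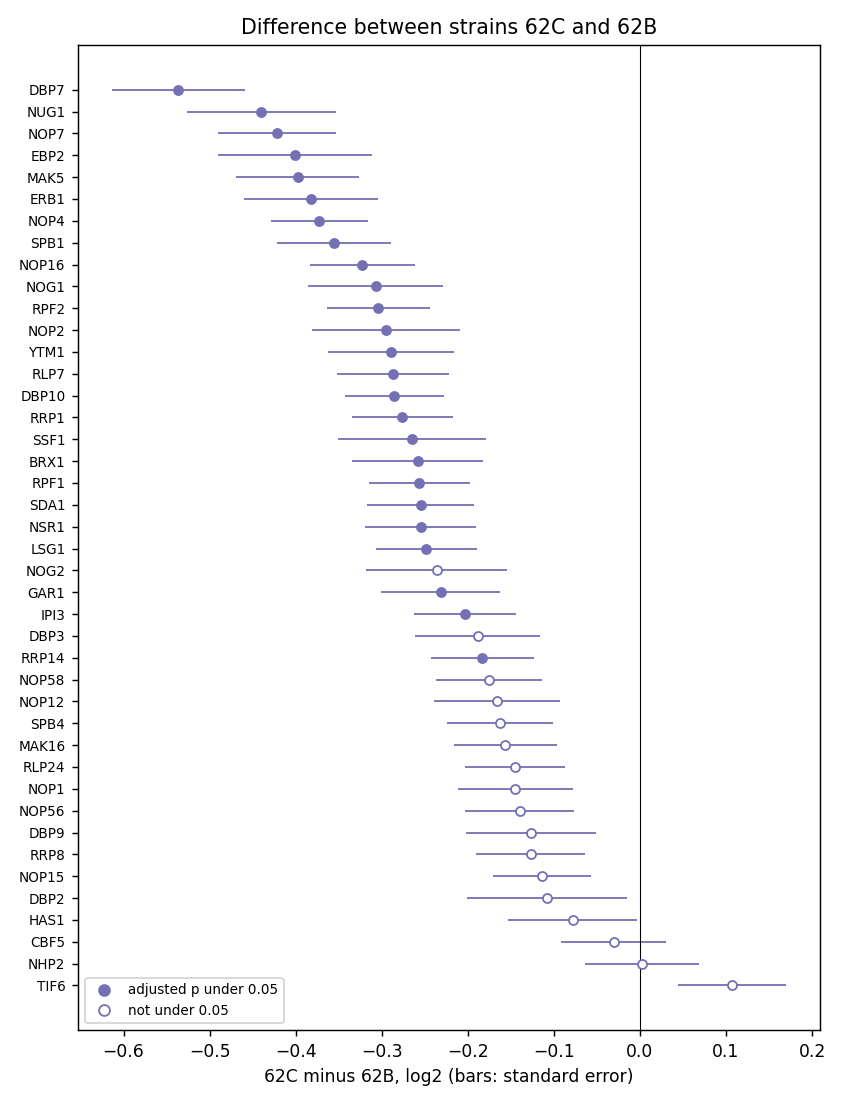
Difference between 62C and 62B for each of the 42 genes (log2, horizontal axis; bars are standard errors of the fit). Filled points are the 25 genes with an adjusted p under 0.05, and TIF6 (0.11) and NHP2 (0.0027) are the genes not below 0.

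Other genes of the route were set beside these. Of 46 further 60S assembly and snoRNP genes 34 fell in 62C, 16 in 62A and 10 in 62B, with medians of -0.34, -0.18 and -0.056, and 4 rose in 62B. The share that fell in 62B, 21.7%, was near the 21.3% of all genes, while 73.9% fell in 62C and 34.8% in 62A, beside 23.3% and 14.9%. RRS1, the partner of RPF2, fell in all 3 strains (-0.41, -0.16 and -0.50 in 62A, 62B and 62C), as did REA1, the large ATPase that strips factors from the pre-60S particle (-0.33, -0.17 and -0.55). Of 51 genes of the small subunit processome, which builds the 40S subunit, 45 fell in 62C, 22 in 62A and 18 in 62B, and 2 rose in 62B (medians -0.36, -0.20 and -0.10). These falls were 88.2%, 43.1% and 35.3% of the list. UTP20 and KRE33 had the largest class changes in that list (-0.49 and -0.44), with adjusted p of 0.0672 and 0.0717. The processome genes were lowest in 62C in 50 of 51 cases, beside 41% of all genes. No test set these lists against the 42 genes.

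The genes of the 60S ribosomal proteins themselves lay close to the reference. Of 70 RPL genes 1 fell in 62C, 1 in 62A and 5 in 62B, and 0 rose in any of them, with medians of 0.045, -0.0062 and 0.0018. These falls were 1.4%, 1.4% and 7.1% of the list, beside 23.3%, 14.9% and 21.3% of all genes in 62C, 62A and 62B. The rises over all genes were 14.7%, 10% and 20.1%. The RPL level was highest in 62C in 54 of 70 cases and lowest there in 8, beside 33.4% and 41% of all genes. Many RPL genes exist as near-identical pairs whose probe sets can share signal. Both medians were taken on the same arrays, and the difference between the lists was not tested.

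Of 17 regulators of ribosome biogenesis genes 6 fell and 1 rose in 62C, 4 fell and 1 rose in 62A, and 4 fell and 1 rose in 62B. The falls were 35.3%, 23.5% and 23.5% of the list, beside 23.3%, 14.9% and 21.3% of all genes, and the single rise was 5.9%, below the share of all genes that rose in each strain. TPK2, a catalytic subunit of protein kinase A, was the gene that rose in each strain, by 0.37 ± 0.059 (adjusted p = 0.00225) in 62A, 0.43 ± 0.048 (adjusted p = 0.000133) in 62B and 0.69 ± 0.059 (adjusted p = 2.60e-05) in 62C. MRS6, which binds the transcription factor Sfp1, fell in each strain and in the class (-0.32 ± 0.056, adjusted p = 0.0436). KOG1, a subunit of TOR complex 1, also fell in each strain and in the class, where its change was -0.31 ± 0.058 (adjusted p = 0.0478). SCH9, the kinase that acts below this complex, fell in 62A (-0.30 ± 0.072, adjusted p = 0.0153) and 62C (-0.30 ± 0.072, adjusted p = 0.0103) and had a change of 0.13 ± 0.059 (adjusted p = 0.118) in 62B. TOR2 also fell in each strain, SFP1 in 62B alone (-0.17 ± 0.049, adjusted p = 0.023), and IFH1 and TOD6 in 62C alone. With these, every regulator that passed in a strain is named. KOG1, SCH9, TOR2, SFP1, IFH1 and TOD6 are named outside the rule used for the other genes of these lists, after their values were seen.

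**Figure D4:**
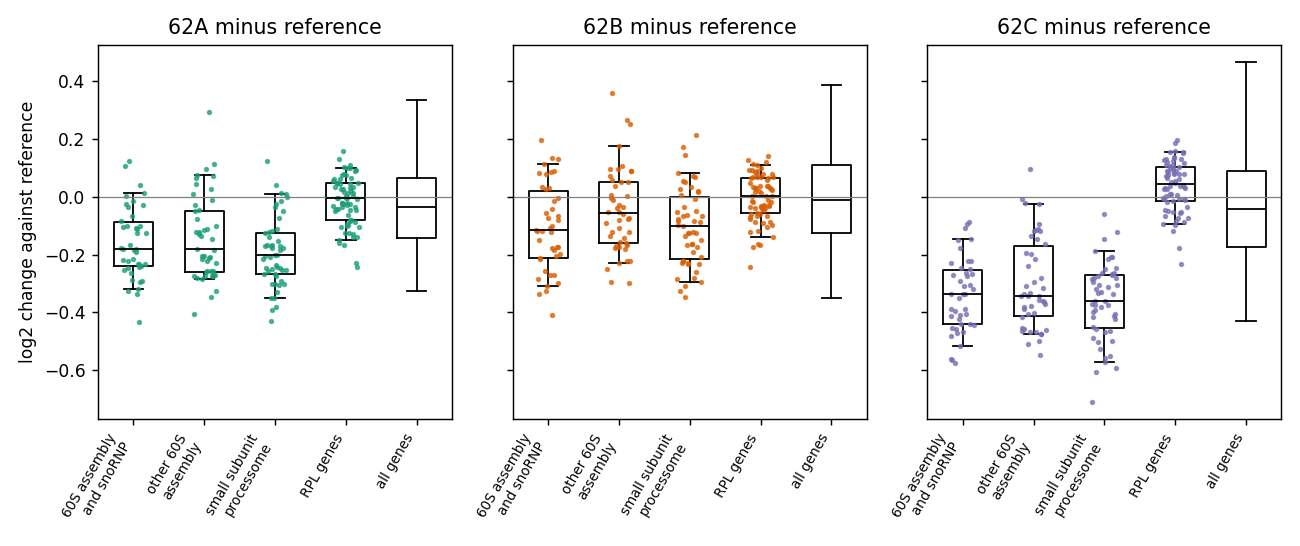
Log2 change against the reference (vertical axis) for the 42 genes, 46 further 60S genes, 51 small subunit processome genes, 70 RPL genes and all 5449 genes, in each strain. Boxes span the quartiles with the median, whiskers the 5th to 95th percentile, and points are genes (not drawn for all genes); the 62C medians are -0.34, -0.34, -0.36, 0.045 and -0.044.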

How the data were processed

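RNA was hybridised to 6 arrays. The authors deposited log2 values, which per the submitters' processing notes came from RMA in affy. Neither tool versions nor the genome build is given in the sources used here. Of 10928 probe sets 5498 matched 1 S. cerevisiae gene each, by the platform annotation and current RefSeq symbols. The brightest probe set stood for each of 47 genes with several, which left 5449 genes.

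Tests used limma 3.58.1 in R 4.3.3 and p-values were adjusted over all 5449 genes by Benjamini and Hochberg (threshold 0.05). The class fit set 3 samples (62A, 62C and the averaged 62B pair) against 2 reference arrays. The strain fit had 1 term per strain over 6 arrays, and the spread of the lone 62A and 62C arrays was taken from the 62B and reference pairs. A run on simulated data checked only that the fits returned planted changes on average. Its arrays were independent and every evolved array had the same change, so it did not test the spread between strains. The number of arrays limits the precision.

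The 42 genes and the lists were chosen with earlier results of these data known. The RPL list was added last, by symbol. Array values are given for every gene in role groups of up to 3, for the 3 genes with the largest class change in larger groups, and for any gene that rose or had one of the 3 smallest p among strains. In each other list 2 genes with the largest class change are named. Alternatives changed the treatment of the 62B pair, the replicate block, the normalization, the filter on dim genes, the probe set rule, the variance model and the arrays included.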

Additional observations from a re-analysis of the deposited data

Results flagged for a closer look

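By direct tests in limma 62C differed from 62B on 25 of the 42 genes (59.5%), from 62A on 1 (2.4%), and 62B differed from 62A on 0. Over all genes the shares were 33.6%, 2.42% and 16.1%. Between 62B and 62A 4 of the 42 had an unadjusted p under 0.05, beside 1608 of all 5449 genes. The log2 level in 62C was below that in 62B for 40 of the 42 genes, and for 25 of them the difference passed. The largest differences were those of DBP7 (-0.54), NUG1 (-0.44), NOP7 (-0.42), EBP2 (-0.40), MAK5 (-0.40), ERB1 (-0.38) and NOP4 (-0.37). Next came SPB1 (-0.36), NOP16 (-0.32), NOG1 (-0.31), RPF2 (-0.30), NOP2 (-0.29), YTM1 (-0.29) and RLP7 (-0.29). Smaller among the 25 were those of DBP10 (-0.29), RRP1 (-0.28), SSF1 (-0.26), BRX1 (-0.26), RPF1 (-0.26) and SDA1 (-0.25). The smallest of the 25 were those of NSR1 (-0.25), LSG1 (-0.25), GAR1 (-0.23), IPI3 (-0.20) and RRP14 (-0.18). NOP4 was also lower in 62C than in 62A (-0.30), with 1 array on each side. The mean 3' minus 5' control difference was 1.73 on the single 62C array and 2.01 and 2.05 in 62B. Without TDH1, which carried most of that gap, it was 1.82 against 1.93 and 1.98, and 62C lay above reference array 2 (1.77). Its part in these differences was not tested.

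A control probe set outside the gene comparisons also stood apart. The one for 5.8S rRNA had log2 values of 9.36 in 62A, 10.24 and 10.31 in 62B, 8.96 in 62C and 9.17 and 9.66 in the reference. Both 62B arrays lay above all others, by 0.86 on the log2 scale over the reference mean. The control probe sets of 25S and 18S rRNA differed between 62B and the reference by -0.28 to 0.050.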

How the results depend on the processing

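In the class comparison 3 of the 42 genes passed. The count was 6 with both 62B arrays as separate samples, 1 when the replicate number was added to that as a block, 0 with strain as a random block, and 31 with the mean of the 3 strain effects tested against the spread between arrays alone. It was 2 or 3 under the other settings and 0 to 3 with 1 array left out. Paired arrays shared only a number. Over all genes, the array 1 minus array 2 differences of 62B and of the reference had a correlation of -0.06. With that number as a replicate block 14 genes passed in 62A, 19 in 62B, 37 in 62C, 21 among the strains and 26 between 62C and 62B. For 62C against 62A, with 1 gene passing, the count was 7 with the replicate block, 4 with quantile normalization, 4 with median centring, 2 with the filter on dim genes and 5 with trend and robust variance. With 1 array left out the counts ran from 7 to 27 in 62A, 6 to 23 in 62B, 34 to 39 in 62C, 3 to 32 among the strains, 0 to 15 for 62C against 62A, 10 to 32 for 62C against 62B and 0 to 4 for 62B against 62A. The cause of these shifts was not tested. In the comparisons between evolved strains a reference array enters only through the spread. Without either reference array only the 62B pair measured that spread, and the medians over the 42 genes were unchanged. Single changes turned sign 49 times in 13 genes, none past the threshold in either fit (lowest adjusted p 0.110), and 0 times in 62C. In the class, separate 62B arrays without and with the replicate block gave 0.021 and 0.051 for SPB1, 0.025 and 0.075 for EBP2, 0.0082 and 0.042 for NOP12, 0.014 and 0.036 for RRP14 and 0.020 and 0.070 for SSF1. Median centring gave 0.0014 for EBP2 and RRP14, 0.0003 for SSF1 and, in 62A, 0.0037 for NOP7. Quantile normalization gave 0.0097 for SSF1 and, in 62A, 0.0040 for NOP56, and the replicate block gave 0.013 for NOP12 in 62A. With 1 array left out the changes that turned sign had these ranges. In the class they were NOP56 -0.065 to 0.0012, DBP7 -0.24 to 0.0069, SPB1 -0.074 to 0.086, NOP7 -0.13 to 0.035, RRP1 -0.11 to 0.02, EBP2 -0.13 to 0.12, NOP12 -0.093 to 0.063, RRP14 -0.045 to 0.031, SSF1 -0.10 to 0.078. In 62A they were NOP56 -0.059 to 0.0009, DBP7 -0.16 to 0.024, SPB1 -0.019 to 0.097, NOP7 -0.033 to 0.0042, RRP1 -0.0071 to 0.034, EBP2 -0.0099 to 0.23, NOP12 -0.11 to 0.042, RRP14 -0.060 to 0.008, SSF1 -0.087 to 0.091. In 62B they were NOP56 -0.0094 to 0.072, DBP7 -0.0097 to 0.17, ERB1 -0.15 to 0.032, BRX1 -0.10 to 0.07, NOP16 -0.0055 to 0.07, NUG1 -0.12 to 0.11.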

Other observations

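RPF1 and GAR1 are neighbouring genes by locus tag and are transcribed toward each other, and both fell in 62C. NOG2 lies next to ESF2, a small subunit processome gene, in the same orientation. The other control probe sets of rRNA had log2 values of 11.06 to 12.25 for 25S and of 11.32 to 12.45 for 18S over the 6 arrays, with the lowest value of each on the 62C array. Among regulators, SCH9 was higher in 62B than in 62A by 0.43 (adjusted p = 0.00385 in limma). Of the 42 genes 0 differed between these strains, beside 16.1% of all genes, and 4 had an unadjusted p under 0.05, beside 1608 of all 5449. A link between SCH9 and the 42 genes was not tested.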
